A study of Homo sapiens with 12 samples.

Results

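The 7 RAS, RAF and MEK genes described here (NRAS, HRAS, MRAS, ARAF, BRAF, MAP2K1 and MAP2K2) were chosen by name as core genes of the cascade from RAS to MEK, and are 7 of the 35810 genes with a row in the tables. Polyadenylated RNA was sequenced from HepG2, an established human hepatoblastoma-derived line with hepatocyte features. The 4 groups of 3 biological replicates were ARID1B-KO cells with sorafenib, WT cells with sorafenib, ARID1B-KO cells with DMSO and WT cells with DMSO. Sorafenib was given at 5 µM for 48 h, DMSO was the vehicle at 0.1% by volume, and the knockout was made with CRISPR/Cas9. ARID1B is a DNA-binding member of the BAF complex, which moves nucleosomes. The labels do not say how many clones the knockout cells came from.

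RAS proteins are small GTPases that, when bound to GTP, bring RAF kinases to the membrane. RAF kinases phosphorylate the MEK kinases, which phosphorylate and activate ERK, and ERK in turn raises transcription of a set of feedback and growth genes. Sorafenib is a kinase inhibitor that binds RAF kinases and several growth factor receptors and is used against liver cancer, so transcript levels of the genes of its target pathway were compared with and without it, in both genotypes.

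All 7 genes have annotated promoter windows, running from 250 bases before to 50 bases after a start, in RefSeq on GRCh38.p14. Windows of MRAS and NRAS are shown because MRAS was the only gene of the 7 called in all 5 comparisons and NRAS was the most abundant RAS gene of the 3 per length. MRAS has 3 such windows on the plus strand of chromosome 3. The first, chr3:138348329-138348628, covers the start of the canonical transcript MRAS-202, and the innermost, chr3:138348970-138349269, covers the start of MRAS-205. The middle window, chr3:138348600-138348899, is not printed. It covers the start of MRAS-211, which held most MRAS counts except in WT cells with DMSO. The NRAS window is chr1:114716722-114717021 on the minus strand. Capitals mark matches to CCGGAAG, the core of sites bound by ETS factors, or TGACTCA, the AP-1 site, both searched on either strand.
MRAS first window: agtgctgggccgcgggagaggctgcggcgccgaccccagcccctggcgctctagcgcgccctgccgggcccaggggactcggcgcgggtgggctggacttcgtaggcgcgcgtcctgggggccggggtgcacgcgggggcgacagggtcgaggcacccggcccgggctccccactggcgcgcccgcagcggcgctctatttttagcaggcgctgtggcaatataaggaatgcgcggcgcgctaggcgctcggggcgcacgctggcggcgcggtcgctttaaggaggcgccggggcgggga
MRAS inner window: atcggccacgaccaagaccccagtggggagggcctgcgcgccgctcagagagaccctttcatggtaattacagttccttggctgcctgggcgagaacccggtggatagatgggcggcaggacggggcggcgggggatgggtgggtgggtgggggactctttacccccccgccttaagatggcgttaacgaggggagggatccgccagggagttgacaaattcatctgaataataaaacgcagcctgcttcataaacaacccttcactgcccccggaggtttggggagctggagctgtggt
NRAS window: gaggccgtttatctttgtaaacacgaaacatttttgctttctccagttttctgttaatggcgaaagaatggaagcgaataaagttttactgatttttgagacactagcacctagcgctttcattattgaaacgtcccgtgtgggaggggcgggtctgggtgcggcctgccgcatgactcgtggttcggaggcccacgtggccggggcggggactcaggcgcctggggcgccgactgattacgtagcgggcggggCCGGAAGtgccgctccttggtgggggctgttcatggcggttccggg
The NRAS window held 1 CCGGAAG match, which began 5 bases after the start, and the HRAS window held 1, which began 133 bases before it. Neither motif was found in the MRAS, ARAF, BRAF, MAP2K1 or MAP2K2 windows. The BRAF window, chr7:140924219-140924518, does not cover base 140924810, the start of BRAF-204, which held most BRAF counts. Of 35116 RefSeq promoter windows of this length, 10.3% held CCGGAAG and 4.95% held TGACTCA. The first MRAS window had 76.3% G and C, above 92.6% of all windows, and the NRAS window had 57.3%.

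The libraries held 19739582 to 29398257 estimated counts, of which 6.75 to 12.3% came from mitochondrial genes, and 12821 genes passed the filter on low counts, all 7 described here among them. ARID1B stood at 35.6, 25.9 and 26.5 CPM (counts per 1e6 counts) in KO cells with sorafenib, against 67.5, 69.1 and 62.3 CPM in WT cells with sorafenib, and at 26.4, 27.99 and 27.6 CPM in KO cells with DMSO, against 58.4, 61.9 and 66.7 CPM in WT cells with DMSO. It was lower in KO cells by a log2 fold change of -1.18 ± 0.11 (SE) with sorafenib and -1.19 ± 0.11 with DMSO, and did not fall to 0. Hepatocyte markers were abundant everywhere, and the stromal markers COL1A2 and DCN and the leukocyte marker PTPRC were listed at 0 in all 12 libraries. The summed level of the 6 hepatocyte markers, carried mostly by ALB and AFP, was 120789 to 156726 TPM (transcripts per 1e6 transcripts, a level per length) in KO cells with sorafenib, 81664 to 83868 TPM in WT cells with sorafenib, 98591 to 110903 TPM in KO cells with DMSO and 73754 to 77651 TPM in WT cells with DMSO. APOA2 went the other way with the drug, with means of 6976 TPM with sorafenib against 13498 TPM with DMSO in KO cells and 5416 against 12844 TPM in WT cells. So did TTR, at 369 against 458 TPM in KO cells and 390.1 against 763 TPM in WT cells. AFP did so in WT cells only, at 19621 against 22321 TPM, and stood at 30170 against 24834 TPM in KO cells. The 5 mesenchymal markers summed to 55.5 to 70.8 TPM in KO cells with sorafenib, 48.7 to 53.8 TPM in WT cells with sorafenib, 33.1 to 34.6 TPM in KO cells with DMSO and 24.3 to 29.5 TPM in WT cells with DMSO, most of it ACTA2, while PDGFRB ran in the opposite order, with means of 0.456, 1.08, 2.05 and 6.20 TPM in the same groups. The 6 blood and endothelial markers summed to 1.12 to 4.56 TPM over all libraries. Their part in the results below was not tested.

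In TPM, MAP2K2 and NRAS stood highest of the 7 genes and HRAS lowest. TPM rests on a modelled effective length, which can differ widely from transcript length. It was 1575 to 1789 bases for HRAS, whose transcript has 1070 bases, and 1525 to 1735 bases for NRAS, whose transcript has 4326. The order below is therefore one of TPM and need not hold per base of transcript. Over the 12 libraries the mean level was 71.8 TPM for MAP2K2 (range 28.1 to 117.5), 63.6 TPM for NRAS (49.7 to 78.6), 20.2 TPM for MAP2K1 (15.8 to 27.0), 8.75 TPM for ARAF (5.38 to 12.4), 8.44 TPM for MRAS (1.49 to 15.3), 5.23 TPM for BRAF (3.35 to 6.92) and 3.51 TPM for HRAS (0 to 6.28). Only NRAS from MAP2K1 and MAP2K1 from ARAF were neighbours in this order whose ranges did not overlap. The place of MAP2K2 rests on one short transcript, MAP2K2-207 of 314 bases, named after its values were seen. It held 0 to 125.2 estimated counts per library, and without it MAP2K2 stood at 26.6 to 37.3 TPM, below NRAS in every library.

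**Figure D1:**
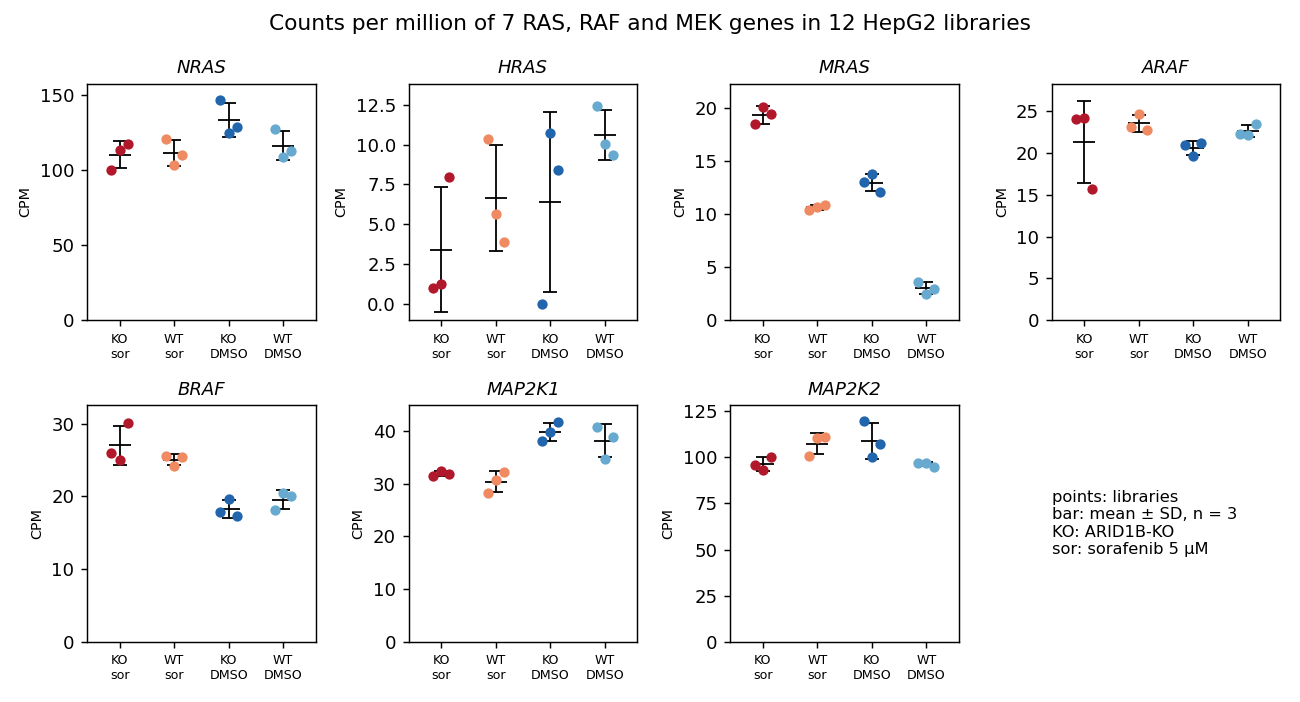
CPM (y axis, linear, TMM-scaled) of the 7 genes in the 4 groups (x axis; KO is ARID1B-KO, sor is sorafenib), with 1 point per library and bars for the mean ± SD of 3. MRAS differs between all 4 groups, BRAF and MAP2K1 split by drug, and HRAS scatters widely within groups.

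MRAS, a relative of the classical RAS proteins that forms a phosphatase complex with SHOC2 and acts on inhibited RAF, was the only gene of the 7 called in all 5 comparisons and was higher with sorafenib and higher in KO cells. It lies on chromosome 3 from 138347648 to 138405534. Its estimated counts came to 18.5, 20.1 and 19.4 CPM in KO cells with sorafenib, 10.4, 10.6 and 10.9 CPM in WT cells with sorafenib, 13.0, 13.7 and 12.1 CPM in KO cells with DMSO and 3.56, 2.43 and 2.96 CPM in WT cells with DMSO. No 2 groups overlapped, WT cells with DMSO were lowest, and KO cells with sorafenib were highest. On this count scale sorafenib raised MRAS 3.54-fold in WT cells (log2 fold change 1.82 ± 0.13 (SE), edgeR quasi-likelihood adjusted p = 6.16e-07) and 1.49-fold in KO cells (0.58 ± 0.12, adjusted p = 0.00193). KO cells exceeded WT cells 1.82-fold with sorafenib (0.86 ± 0.12, adjusted p = 0.000255) and 4.31-fold with DMSO (2.11 ± 0.13, adjusted p = 2.25e-07).

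The drug response of MRAS differed between the genotypes, being smaller in KO cells. The interaction was -1.25 ± 0.18 on the log2 scale (edgeR adjusted p = 0.0136), rank 10 by p among 12821 genes, and MRAS was the 1 gene of the 7 called there, where 0.835% of all genes were called (0.374% higher, 0.460% lower). It was not called without WT replicate 2 with sorafenib, where the value was -1.25 and the adjusted p 0.0551.

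How far MRAS differed depends on whether counts are read per length. MRAS averaged 10.9 ± 3.1 TPM in KO cells with sorafenib, 10.5 ± 3.1 TPM in WT cells with sorafenib, 10.2 ± 4.4 TPM in KO cells with DMSO and 2.14 ± 0.67 TPM in WT cells with DMSO (SD, n = 3 each). WT cells with DMSO stood below the other 3 groups on this scale as well, and those 3 overlapped. In a fit with an offset for the mean effective transcript length, the calls in WT cells with sorafenib against DMSO (2.33 ± 0.37, edgeR adjusted p = 0.00101) and in KO against WT cells with DMSO (2.15 ± 0.36, adjusted p = 0.00228) were made, and the other 3 were not. The values were then 0.22 ± 0.34 for sorafenib against DMSO in KO cells (adjusted p = 0.663), 0.04 ± 0.34 for KO against WT cells with sorafenib (adjusted p = 0.947) and -2.11 ± 0.50 for the interaction (adjusted p = 0.163). MRAS-211, of 3801 bases, held 65.9% of MRAS counts but 15.1% of its TPM in WT cells with sorafenib. In KO cells it held 70.2 and 29.7% with sorafenib and 62.1 and 21.2% with DMSO. MRAS-206 and MRAS-207, of 271 and 394 bases and named after values were seen, had 0 to 6.0 and 0 to 12.3 counts per library. Short transcripts weigh more in TPM, so the TPM and offset values of MRAS rest in part on few counts.

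**Figure D2:**
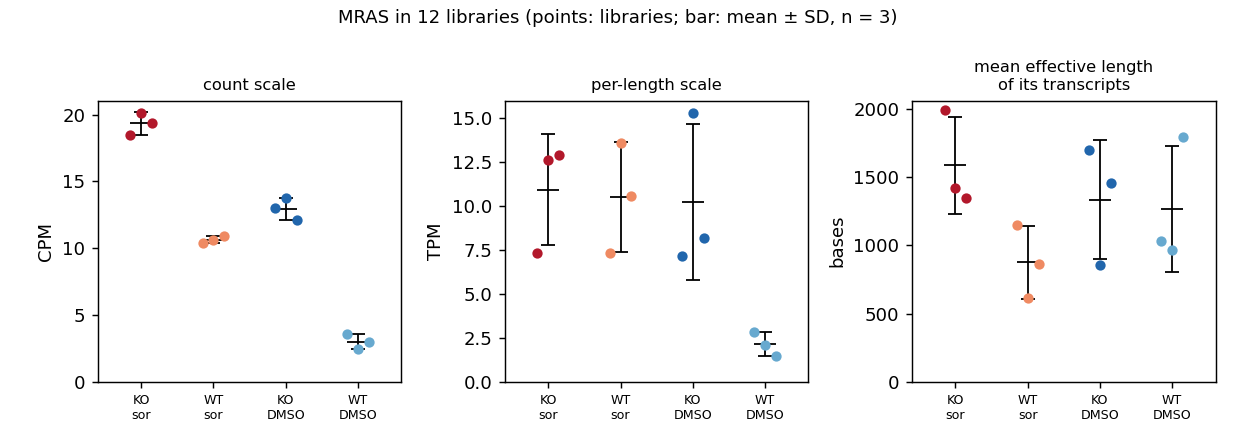
MRAS in the 4 groups as CPM (left), TPM (middle) and mean effective length of its transcripts in bases (right), with 1 point per library and bars for the mean ± SD of 3. The groups separate fully in counts, whereas in TPM WT cells with DMSO stand below the other 3, which overlap.

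The counts of MRAS were spread over transcripts that the quantification did not assign alike in every library. MRAS-211, which starts at base 138348666 of chromosome 3 and carries 396 coding bases against the 624 of MRAS-202, took 70.2 ± 5.10% of MRAS counts in KO cells with sorafenib, 65.9 ± 3.15% in WT cells with sorafenib and 62.1 ± 4.13% in KO cells with DMSO. In WT cells with DMSO it took 0, 0 and 71.1%, where the gene had only 104, 52 and 79 counts. MRAS-205, which starts in the inner window printed above, had 40.2, 35.5 and 33.1 counts in KO cells with sorafenib, 32.6, 33.5 and 19.7 in WT cells with sorafenib, 23.3, 34.1 and 16.2 in KO cells with DMSO and 0 in each WT library with DMSO. Both transcripts that start there summed to 192.6 counts in KO cells with sorafenib, 150.1 in WT cells with sorafenib, 116.1 in KO cells with DMSO and 30.5 in WT cells with DMSO, over 3 libraries each. The 6 transcripts with a start between bases 138348579 and 138348907 summed to 1026 counts in KO cells with sorafenib, 591.9 in WT cells with sorafenib, 589.6 in KO cells with DMSO and 155.5 in WT cells with DMSO. The 2 transcripts with the outermost starts, between bases 138347648 and 138347697, had their largest sum in KO cells with DMSO. They had 52.7 counts in KO cells with sorafenib, 28.9 in WT cells with sorafenib, 125.2 in KO cells with DMSO and 47.0 in WT cells with DMSO. These counts and sums are not scaled to library depth, which differed between libraries. Close sums, such as 591.9 and 589.6, therefore do not order the groups.

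Among the other RAS genes, NRAS was lower with sorafenib in KO cells and was not called in any other comparison. NRAS, one of the classical RAS genes mutated in cancer, has a single transcript, NRAS-201, on chromosome 1 from 114704469 to 114716771. It stood at 100.1, 113 and 117 CPM in KO cells with sorafenib, against 146, 125 and 129 CPM in KO cells with DMSO, with no overlap. The log2 fold change was -0.27 ± 0.10 (SE; edgeR adjusted p = 0.0336), a 0.827-fold level. That call was lost in 7 of 18 alternatives, among them leaving out KO replicate 1 or 2 with sorafenib or KO replicate 1 or 3 with DMSO, with values of -0.30 to -0.18. In WT cells NRAS stood at 120.4, 103 and 110.2 CPM with sorafenib, against 127, 109 and 113 CPM with DMSO, which overlapped (-0.06 ± 0.10, adjusted p = 0.668). The difference between the genotypes in this response was -0.21 ± 0.14 (interaction, adjusted p = 0.495). KO and WT cells overlapped with sorafenib (-0.02 ± 0.10) and with DMSO (0.20 ± 0.10, adjusted p = 0.150).

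HRAS, another classical RAS gene, on chromosome 11 from 532242 to 537321, could not be measured well. It stood at 1.01, 1.28 and 7.95 CPM in KO cells with sorafenib, 10.3, 5.65 and 3.89 CPM in WT cells with sorafenib, 0, 10.7 and 8.42 CPM in KO cells with DMSO and 12.4, 10.1 and 9.37 CPM in WT cells with DMSO. Libraries of one group differed by more than the groups did, and its biological coefficient of variation, 1.11, was above that of 98.7% of the genes tested. The tables hold 1 of its 10 annotated transcripts, HRAS-201. No comparison called HRAS, and the 95% interval of its log2 fold change ran from -3.23 to 1.88 for sorafenib against DMSO in WT cells and from -3.61 to 1.77 in KO cells, so several-fold changes either way were not detectable here.

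Of the RAF kinases, BRAF was higher with sorafenib in both genotypes and ARAF was not called. BRAF, the RAF kinase with the highest basal activity, stood at 26.0, 25.0 and 30.0 CPM in KO cells with sorafenib, against 17.8, 19.6 and 17.3 CPM in KO cells with DMSO. It stood at 25.5, 24.2 and 25.5 CPM in WT cells with sorafenib, against 18.1, 20.5 and 20.1 CPM in WT cells with DMSO. All 6 libraries with sorafenib lay above all 6 with DMSO. BRAF rose 1.48-fold in KO cells (log2 fold change 0.57 ± 0.09 (SE), edgeR adjusted p = 0.000326) and 1.28-fold in WT cells (0.36 ± 0.09, adjusted p = 0.00922), and both calls were made in every alternative run. The interaction was 0.21 ± 0.13 (adjusted p = 0.492), and KO against WT cells gave 0.11 ± 0.09 with sorafenib and -0.10 ± 0.09 with DMSO, neither called. KO against WT gave -0.02 with sorafenib and 0.03 with DMSO once the length offset was added. A single transcript, BRAF-204, with a 9578-base mRNA and 2301 coding bases, held 91.1 ± 2.9% of BRAF counts in KO cells with sorafenib, 88.0 ± 2.7% in WT cells with sorafenib, 92.4 ± 3.1% in KO cells with DMSO and 89.2 ± 3.9% in WT cells with DMSO (SD, n = 3). BRAF lies on chromosome 7 from 140719327 to 140924929 and overlaps NDUFB2 on the other strand, which had 682 to 1552 counts per library. The sources do not state whether counting used strand, so reads in the shared stretch cannot be told apart.

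ARAF, a RAF kinase with weak activity of its own, encoded on chromosome X from 47561205 to 47571908, stood at 24.1, 24.2 and 15.7 CPM in KO cells with sorafenib, 23.2, 24.7 and 22.8 CPM in WT cells with sorafenib, 20.9, 19.6 and 21.2 CPM in KO cells with DMSO and 22.3, 22.1 and 23.5 CPM in WT cells with DMSO. KO replicate 3 with sorafenib was the lowest of the 12 libraries. For sorafenib against DMSO the log2 fold change was 0.05 ± 0.14 in KO cells (95% interval -0.24 to 0.34) and 0.06 ± 0.13 in WT cells (-0.23 to 0.35), and neither was called by edgeR (adjusted p = 0.787 and 0.780). Without KO replicate 3 with sorafenib, the value in KO cells was 0.23 (adjusted p = 0.0481). Of the summed ARAF and BRAF level in TPM, ARAF held 57.0 ± 13.3% in KO cells with sorafenib, 59.4 ± 3.45% in WT cells with sorafenib, 64.7 ± 4.86% in KO cells with DMSO and 67.7 ± 6.21% in WT cells with DMSO (SD, n = 3).

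Of the MEK kinases, MAP2K1 was lower with sorafenib in both genotypes, and MAP2K2 was not called. MAP2K1 encodes MEK1, lies on chromosome 15 from 66386837 to 66491656 and stood at 31.4, 32.4 and 31.9 CPM in KO cells with sorafenib, against 38.2, 39.8 and 41.7 CPM in KO cells with DMSO. In WT cells it stood at 28.2, 30.8 and 32.3 CPM with sorafenib, against 40.9, 34.8 and 39.0 CPM with DMSO. All 6 libraries with sorafenib lay below all 6 with DMSO. The log2 fold change was -0.32 ± 0.08 in KO cells (SE; edgeR adjusted p = 0.00672) and -0.33 ± 0.08 in WT cells (adjusted p = 0.00776), levels of 0.800 and 0.796 times those with DMSO. Under the length offset the value in WT cells was -0.19 and was not called (adjusted p = 0.218). The interaction was 0.01 ± 0.12, and KO against WT cells gave 0.07 ± 0.08 with sorafenib and 0.06 ± 0.08 with DMSO. The tables hold 3 of its 17 annotated transcripts, and the canonical MAP2K1-201 and the other main transcript, which has 651 coding bases against 1179, took 52.1 to 56.7% and 42.8 to 47.9% of its counts as group means. MAP2K1-201 is annotated at 2547 bases against 3410 bases as quantified, so its annotation may not describe the sequence counted.

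MAP2K2 encodes MEK2 and lies on chromosome 19 from 4090321 to 4124122. It stood at 96.0, 93.0 and 100.4 CPM in KO cells with sorafenib, 100.7, 110.5 and 111.2 CPM in WT cells with sorafenib, 119.6, 100.3 and 107.2 CPM in KO cells with DMSO and 97.1, 97.0 and 94.95 CPM in WT cells with DMSO. With sorafenib every KO library lay below every WT library, and with DMSO every KO library lay above. The log2 fold change of KO against WT was -0.16 ± 0.08 with sorafenib (SE; edgeR adjusted p = 0.169) and 0.18 ± 0.08 with DMSO (adjusted p = 0.114). That of sorafenib against DMSO was -0.18 ± 0.08 in KO cells (adjusted p = 0.0871) and 0.16 ± 0.08 in WT cells (adjusted p = 0.143). The interaction, -0.33 ± 0.11, had an unadjusted p of 0.0110 and an adjusted p of 0.175, so it did not pass. Under the length offset, KO against WT was 0.24 with sorafenib (adjusted p = 0.722) and 0.75 with DMSO (adjusted p = 0.216), and sorafenib against DMSO was -0.44 in KO cells (adjusted p = 0.430) and 0.07 in WT cells (adjusted p = 0.919).

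The canonical coding transcript MAP2K2-201 held 57.3, 45.2 and 59.1% of MAP2K2 counts in KO cells with sorafenib, against 70.9, 71.6 and 67.2% in WT cells with sorafenib. It held 54.3, 59.3 and 63.8% in KO cells with DMSO, against 70.5, 71.5 and 68.9% in WT cells with DMSO. Every KO library thus lay below every WT library. MAP2K2-202 is annotated with a retained intron and no reading frame. Its annotated length is 1899 bases against 1471 bases as quantified, so the annotation may not describe the sequence counted. It held 37.9 ± 6.3% in KO cells with sorafenib and 24.3 ± 2.9% in WT cells with sorafenib. With DMSO it held 31.6 ± 4.6% in KO cells and 23.1 ± 2.5% in WT cells (SD, n = 3). These shares were computed after results of these data were known and were not tested. As shares of TPM, in which the short MAP2K2-207 weighs more, KO and WT libraries overlapped for both transcripts.

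**Figure D3:**
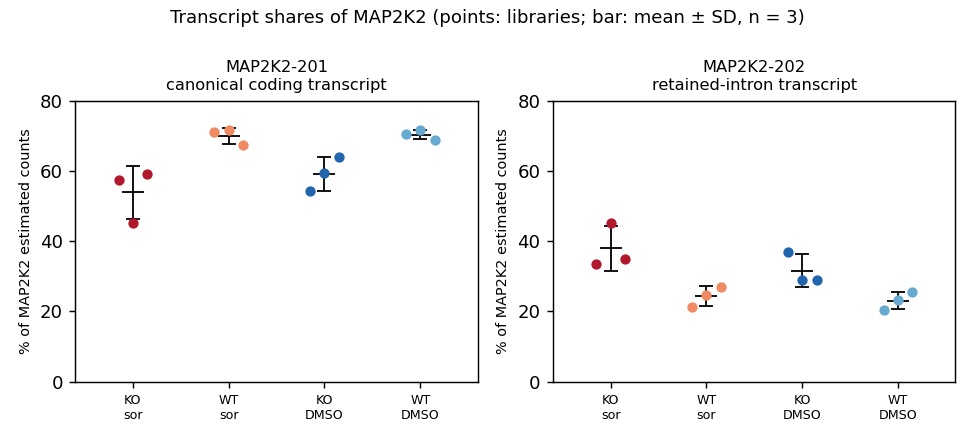
Share of MAP2K2 estimated counts (y axis, %) held by MAP2K2-201 and by MAP2K2-202 in the 4 groups, with 1 point per library and bars for the mean ± SD of 3. MAP2K2-202 is annotated with a retained intron, but its annotated length differs from the length quantified. MAP2K2-201 holds 45.2 to 63.8% in KO libraries and 67.2 to 71.6% in WT libraries.

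The counts of members called are read against the share of all genes tested that were called, and none is a result about the 7 genes as a set. For sorafenib against DMSO in WT cells 3 of 7 were called (MRAS and BRAF higher, MAP2K1 lower), where 35.4% of all genes tested were (17.5% higher, 18.0% lower). In KO cells 4 of 7 were called (BRAF and MRAS higher, MAP2K1 and NRAS lower), against 46.7% of all genes (23.0% higher, 23.7% lower). For KO against WT cells only MRAS was called, 1 of 7 with sorafenib, against 27.0% of all genes (13.2% higher, 13.8% lower), and 1 of 7 with DMSO, against 27.8% (14.3% higher, 13.5% lower). With sorafenib against DMSO, libraries separated fully for 4 of the 7 in WT cells, against 50.8% of all genes, and for 4 in KO cells, against 52.9%. For KO against WT cells they separated for 2 of 7 with sorafenib, against 42.7%, and 3 of 7 with DMSO, against 42.2%. The comparisons share control groups and are not independent of each other. By size, the MRAS change with sorafenib was larger than that of 68.3% of genes in KO cells and 97.5% in WT cells, and its difference between KO and WT cells was larger than that of 88.2% with sorafenib and 96.9% with DMSO. The BRAF change with sorafenib was larger than that of 67.4% of genes in KO cells and 57.2% in WT cells. HRAS, with its wide intervals, lay above 80.9 to 90.0% of genes in these 4 comparisons.

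**Figure D4:**
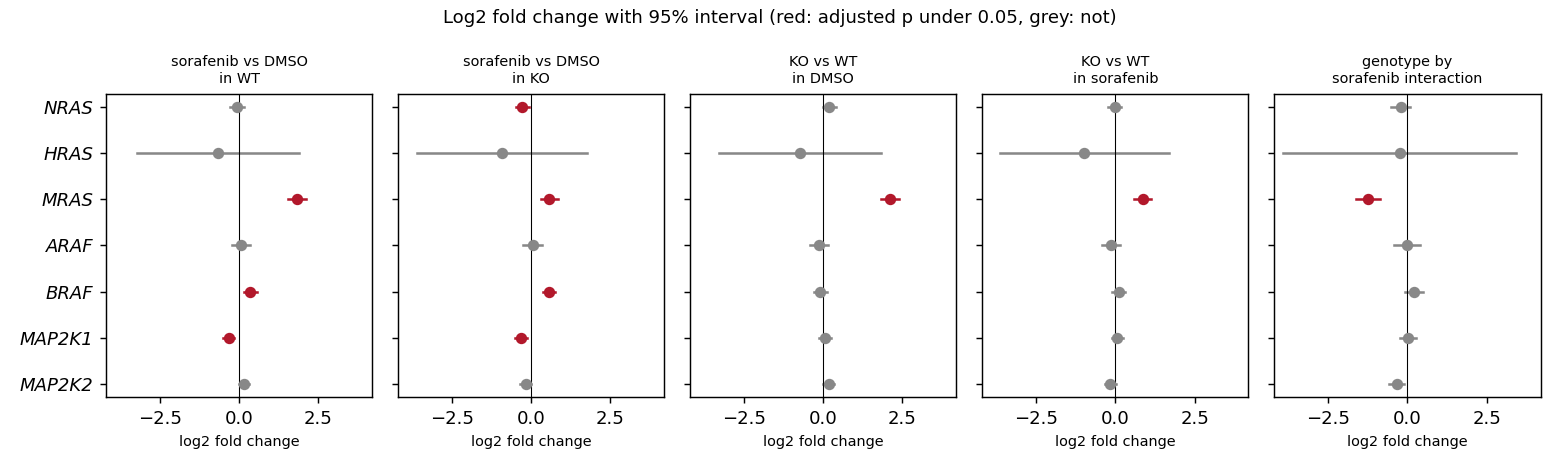
Log2 fold change (x axis) with its 95% interval for the 7 genes (rows) in the 5 comparisons (panels); red marks an adjusted p under 0.05 and grey the rest. MRAS stands apart from 0 in every panel, and the intervals of HRAS span several units either way.

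The genes whose levels followed those of a called member most closely over the 12 libraries were found by the smallest root mean square (RMS) difference of centred log2 CPM. For BRAF they were VIL1, NUMB and PDE4DIP, with RMS differences of 0.0831 to 0.0879 against 0.249 for BRAF about its own mean. For MAP2K1 they were SLC25A39, ADIPOR1 and FAM83D (0.0661 to 0.0703 against 0.179), and for NRAS they were EXOC5, PAPOLA and RAB8A (0.0518 to 0.0536 against 0.145). MRAS was followed less closely, by DNAAF3, LEAP2 and BTG2, with RMS differences of 0.266, 0.279 and 0.295 against 1.01. DNAAF3, the nearest, was called as higher with sorafenib in WT cells (2.14, edgeR adjusted p = 0.00414) and in KO against WT cells with DMSO (2.35, adjusted p = 0.00322), but not with sorafenib in KO cells (0.36, adjusted p = 0.501) or for KO against WT with sorafenib (0.57, adjusted p = 0.334). LEAP2 was called as higher in all 4. BTG2, an antiproliferative gene, was higher with sorafenib in WT cells by a log2 fold change of 1.13 and in KO cells by 0.61, and higher in KO than in WT cells by 1.04 with sorafenib and 1.56 with DMSO, all called by edgeR. The interaction was called for none of these 3 genes (adjusted p = 0.156 to 0.303). The nearest genes were picked for their likeness over the same 12 libraries. Their calls are thus bound to resemble those of MRAS and are not separate evidence.

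Downstream of the cascade, the genes whose transcription ERK is known to raise were mostly lower with sorafenib and mostly lower in KO cells. Of 14 tested, 9 fell and 1 rose with sorafenib in KO cells (median log2 fold change -1.88, all genes 0.01), and 9 fell and 1 rose in WT cells (median -1.42, all genes -0.01). Of all genes, 23.7% fell in KO cells and 18.0% in WT cells. In KO against WT cells 10 fell and 2 rose with sorafenib (median -0.98), and 8 fell and 2 rose with DMSO (median -0.51, all genes 0.01), where 13.8% of all genes were lower with sorafenib and 13.5% with DMSO. Under that offset 5 fell in KO against WT cells with DMSO. ETV4, an ETS transcription factor, averaged 8.40 ± 1.24 CPM in KO cells with sorafenib, 24.1 ± 0.766 CPM in WT cells with sorafenib, 165 ± 8.50 CPM in KO cells with DMSO and 239 ± 12.4 CPM in WT cells with DMSO (SD, n = 3). It fell by 4.30 on the log2 scale with sorafenib in KO cells (edgeR adjusted p = 5.70e-11) and by 3.31 in WT cells (adjusted p = 5.15e-10). ETV5, its close relative, fell by 3.57 in KO cells and by 2.83 in WT cells, and SPRY4, a feedback inhibitor of the pathway, had log2 fold changes of -4.66 in KO cells and -3.50 in WT cells. The genes that rose in KO against WT cells with DMSO included CCND1, which encodes cyclin D1, by 0.58 ± 0.09 (adjusted p = 0.000286), while EGR1, an immediate early transcription factor, fell by 1.80.

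The fall with sorafenib was larger in KO cells for 3 of these 14 genes by the interaction, where 0.460% of all genes were called lower. ETV4 had an interaction of -0.99 ± 0.14 (edgeR adjusted p = 0.0136), ETV5 of -0.74 ± 0.12 (adjusted p = 0.0261) and SPRED2, another feedback inhibitor, of -0.57 ± 0.11 (adjusted p = 0.0411). Of 17 alternatives the call was made in 15 for ETV4, 7 for ETV5 and 3 for SPRED2, and it was made for none of them with the offset for transcript length. Leaving out WT replicate 2 with sorafenib ended all 3 calls.

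Partners and scaffolds of RAF and MEK were called in both directions. Of 21 tested, 9 fell and 4 rose with sorafenib in KO cells (median -0.24), and 5 fell and 1 rose in WT cells (median -0.10), where 46.7% of all genes were called in KO cells and 35.4% in WT cells. In KO against WT cells 5 fell and none rose with sorafenib (median -0.06), and 6 fell and 2 rose with DMSO, where the median, 0.08, was opposite in sign to the balance of calls, against 27.0% of all genes called with sorafenib and 27.8% with DMSO. None was called in the interaction. Adding the offset, 2 fell and 1 rose with DMSO, and 3 fell with sorafenib, in KO against WT cells. PEBP1, a protein that binds RAF kinases and hinders MEK phosphorylation, rose with sorafenib by 1.01 ± 0.12 in KO cells (edgeR adjusted p = 3.07e-05) and by 0.86 ± 0.12 in WT cells (adjusted p = 0.000163). PAQR3, which holds RAF at the Golgi, fell by 0.96 in KO cells and by 0.60 in WT cells, and CDC37, the HSP90 co-chaperone of kinases, fell by 0.49 and by 0.46. IQGAP1, a scaffold of the cascade, was lower in KO than in WT cells with DMSO, by a log2 fold change of -0.84 ± 0.14 (adjusted p = 0.000815).

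Upstream of RAS, adaptors and exchange factors were called in both directions. Of 9 tested, 3 fell and 3 rose with sorafenib in KO cells, where 46.7% of all genes were called, and 2 fell and 2 rose in WT cells, where 35.4% were. In KO against WT cells 3 fell and 3 rose with sorafenib, against 27.0% of all genes, and 1 fell and 2 rose with DMSO, against 27.8%. Adding the length offset, 2 fell and 1 rose with sorafenib in KO cells, and 1 fell and none rose in WT cells. PTPN11, which encodes the phosphatase SHP2 that promotes RAS activation, fell with sorafenib by 0.73 ± 0.08 in KO cells (edgeR adjusted p = 1.07e-05) and by 0.41 ± 0.08 in WT cells (adjusted p = 0.00147). SHC1, an adaptor, fell by 0.60 in KO cells and by 0.32 in WT cells, and was higher in KO than in WT cells by 0.54 ± 0.07 with DMSO. With the offset for transcript length SHC1 was not called for sorafenib in WT cells (-0.32, adjusted p = 0.204) or for KO against WT with DMSO (0.32, adjusted p = 0.219). Of the 7 genes that switch RAS off or degrade it, only NF1, the GTPase-activating protein neurofibromin, was called with sorafenib in KO cells (-0.51 ± 0.08, adjusted p = 0.000215), and none was called in WT cells.

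**Figure D5:**
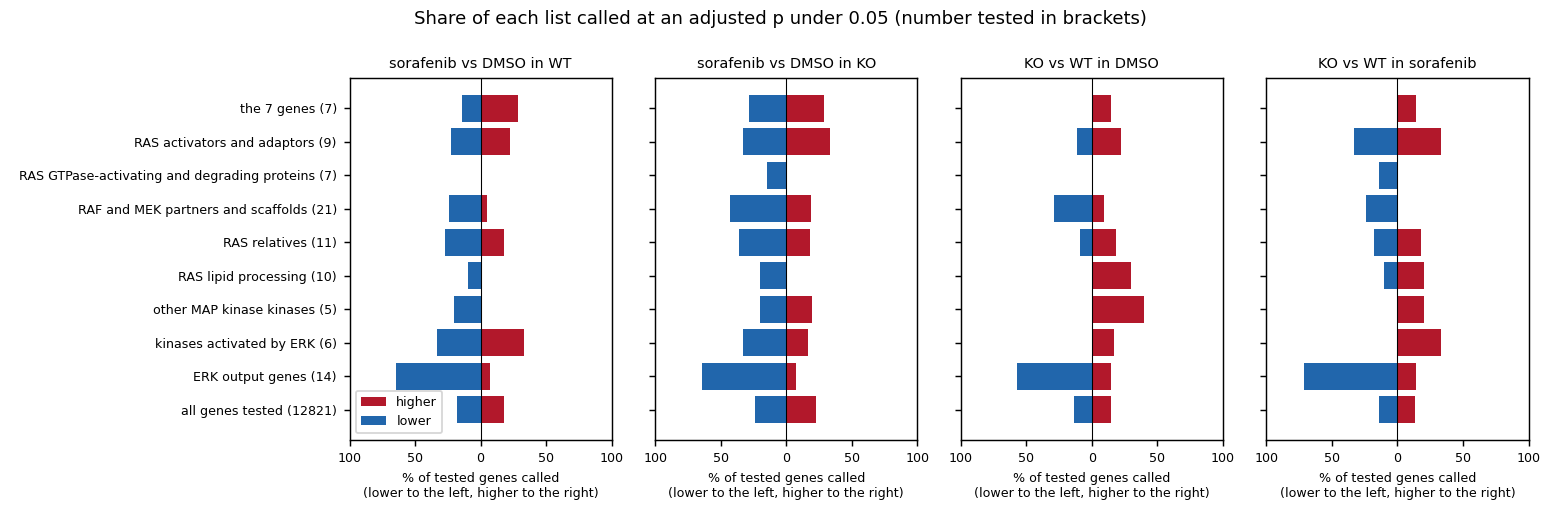
Share of the tested genes of each list (rows, number tested in brackets) that were called higher (to the right, red) or lower (to the left, blue) at an adjusted p under 0.05 in 4 comparisons, with all 12821 genes in the lowest row. Of the 14 ERK output genes, 8 to 10 are lower in each panel.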

How the data were processed

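Each of the 12 libraries (polyadenylated RNA, paired 75 bp reads) has a deposited table of estimated counts and TPM for 177456 transcripts, which the authors made with Salmon on GRCh38, per the submitters' processing notes. The TPM values are the authors' own. Transcripts were matched to GENCODE 44 by identifier without its version number, 93.3% of them. The 2.87 to 3.20% of counts on unmatched transcripts were left out of gene sums. Estimated counts were summed per gene and rounded to whole numbers, filtered with filterByExpr, scaled with TMM and tested with edgeR 4.0.16 (quasi-likelihood, R 4.3.3) over all 4 groups in 1 fit, with Benjamini-Hochberg adjustment over 12821 genes and a threshold of 0.05. Replicates are biological per the series' design text. Named were the 7 members, ARID1B, the 3 genes of smallest adjusted p per wider list and comparison, the 3 genes nearest each called member, and transcripts with at least 10% of a member's counts. The test was checked on simulated data. Alternatives were no filter, DESeq2 size factors, DESeq2 1.42.0, an offset for effective transcript length, a replicate block, leaving out each library, and fits of only the groups compared, the last chosen after seeing the data. The members and lists were chosen with earlier results of these data known. ERK genes and the remaining RAS and RAF genes were not analysed here. Promoter windows are RefSeq's.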

Additional observations from a re-analysis of the deposited data

Results flagged for a closer look

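MRAS responded to sorafenib differently in the 2 genotypes, with an interaction of -1.25 on the log2 scale (± 0.18 SE, edgeR adjusted p = 0.0136), from a change of 0.58 in KO cells and 1.82 in WT cells. In CPM all 3 libraries with sorafenib lay above all 3 with DMSO in both genotypes. In TPM the KO libraries overlapped, at 7.32 to 12.9 TPM with sorafenib and 7.14 to 15.3 TPM with DMSO. Without WT replicate 2 with sorafenib the interaction was not called (edgeR adjusted p = 0.0551). With the offset for transcript length the interaction was -2.11 ± 0.50 and was not called (adjusted p = 0.163).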

How the results depend on the processing

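With the offset for transcript length, 23 of 35 member values kept their direction and side of the threshold, 7 changed sign and 5 lost their call. It called 2870 genes for sorafenib in WT cells, 2190 for KO against WT with DMSO and 2049 with sorafenib, and 2 for the interaction, against 4543, 3563, 3463 and 107 without it. Members called were then 2 for sorafenib in KO cells, 0 for KO against WT with sorafenib and 0 for the interaction. It turned the sign of uncalled values: for KO against WT, BRAF was -0.023, NRAS 0.031 and MAP2K2 0.24 with sorafenib and BRAF 0.028 with DMSO, and the interaction was 0.080 for ARAF, -0.051 for BRAF and -0.14 for MAP2K1. Among wider genes it turned MKNK1 to -0.073 for sorafenib in WT cells and, for KO against WT, LYPLA2 to -0.32 with sorafenib and -0.037 with DMSO and RPS6KA1 to -0.074 with DMSO. The ARAF interaction was 0.0060 with no filter, 0.0069 with DESeq2 size factors and 0.0071 with DESeq2. DESeq2 called 578 genes for the interaction. Leaving out 1 library gave 5 (without WT replicate 2 with sorafenib) to 138 interaction genes and 0 to 1 members. It gave ARAF -0.049 to 0.23 for sorafenib in KO cells, -0.24 to 0.034 for KO against WT with sorafenib and -0.11 to 0.17 for the interaction. It gave NRAS -0.069 to 0.048 for KO against WT with sorafenib and -0.12 to 0.0088 for sorafenib in WT cells. The HRAS interaction ran from -1.80 to 0.37, the MAP2K1 interaction from -0.046 to 0.069, and MAP2K1 for KO against WT with DMSO from -0.0018 to 0.11. As shares of TPM, MAP2K2-201 held 20.7% in KO cells with sorafenib, 36.1% in WT cells with sorafenib, 17.4% in KO cells with DMSO and 33.6% in WT cells with DMSO, and MAP2K2-202 held 18.6, 17.9, 12.7 and 15.5% in the same groups. With a replicate block 19 genes were called for the interaction and no member changed its call. Deviations of same-numbered libraries correlated at -0.163 to 0.184 over 18 pairs, against -0.169 to 0.183 over 36 pairs of other numbers. These correlations did not separate same from other numbers, and do not settle whether the numbers pair libraries. The cause of these changes was not tested.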

Other observations

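Other genes around the cascade were called in both directions. Of 11 tested relatives of the RAS genes, 4 fell and 2 rose with sorafenib in KO cells, and 3 fell and 2 rose in WT cells, where 46.7% of all genes were called in KO cells and 35.4% in WT cells. With the offset for transcript length 4 fell and 1 rose in KO cells, and 2 fell and 0 rose in WT cells. RAP2A, a RAP-family GTPase, was higher with sorafenib by a log2 fold change of 0.51 in KO cells and 0.49 in WT cells, the call in WT cells being lost with that offset (0.44, edgeR adjusted p = 0.0747). Of 10 genes for lipid processing of RAS, ICMT, a methyltransferase, fell by 0.63 with sorafenib in KO cells and by 0.42 in WT cells. Its call in WT cells was lost without WT replicate 3 with sorafenib. Of 5 other MAP kinase kinases, MAP2K3 was higher in KO than in WT cells by 0.40 with sorafenib and 0.39 with DMSO. With the offset the value with sorafenib was 0.16 and was not called (adjusted p = 0.400). Of 6 kinases activated by ERK, MKNK2, which phosphorylates a translation initiation factor, rose with sorafenib by 1.15 in KO cells and by 0.52 in WT cells. The call in WT cells was lost without WT replicate 2 or 3 with sorafenib or WT replicate 2 or 3 with DMSO. RPS6KA4 had log2 fold changes of -0.62 in KO cells and -0.58 in WT cells, neither called with the offset, and RPS6KA3 of -0.48 in KO cells and -0.27 in WT cells. SHOC2, looked up after values were seen because it forms a complex with MRAS, was not called with sorafenib in KO cells (-0.07, edgeR adjusted p = 0.620) or WT cells (-0.02, adjusted p = 0.902).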
